A study of Mus musculus with 9 samples.

Results

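Transcripts of 10 heat shock chaperone genes were compared between the skin of 4 *Supt6*-KO mice and 5 control mice by bulk RNA-seq. The genes were taken by name from the 17943 rows of the deposited gene table, and all 10 were among the 16426 genes that passed a filter on low counts. They encode the HSP70 proteins *Hspa1a*, *Hspa1b* and *Hspa8*, the HSP110 protein *Hsph1*, the HSP90 protein *Hsp90aa1*, the J-domain proteins *Dnaja1* and *Dnajb1*, the BAG protein *Bag3*, the small heat shock protein *Hspb1* and the mitochondrial co-chaperonin *Hspe1*. Control mice carried floxed *Supt6* alleles (*Supt6* fl/fl), are labelled WT, and received corn oil as vehicle. *Supt6*-KO mice were K14-CreERT; *Supt6* fl/fl animals given tamoxifen, in which keratin 14 promoter activity limits the recombination to basal keratinocytes and their progeny. Cre transgene, tamoxifen and loss of *Supt6* therefore differ together between the groups and cannot be told apart. Skin was taken on day 10 after the last injection. Ages and sexes of these mice are not given in the sources used here, and the labels name the ear as the tissue whereas the methods of the study name dorsal skin. The paper places the daily injections in the first telogen phase of the hair cycle. It describes the *Supt6*-KO samples as lesional and the control samples as matched skin. Lesions therefore also differ between the groups and cannot be told apart from the loss of *Supt6*. Total estimated counts ran from 29627341 to 30491197 in control and from 30597189 to 30967107 in *Supt6*-KO libraries.

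Heat shock proteins are molecular chaperones that hold unfolded proteins in solution, fold them and pass them on for degradation. HSP70 binds short stretches of client protein in cycles of ATP hydrolysis, in which J-domain proteins deliver the client and start hydrolysis, while HSP110 and BAG proteins act as nucleotide exchange factors. HSP90 takes over clients such as kinases and steroid receptors, small heat shock proteins bind aggregating clients without ATP, and the HSP60 and HSP10 chaperonins fold proteins in the mitochondrial matrix. Many of these genes are transcribed at a basal level and are induced by heat shock factor 1 at heat shock elements, which are arrays of inverted GAA units. SPT6, the product of *Supt6*, is a histone chaperone that travels with elongating RNA polymerase II.

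*Supt6* itself was measured first. Control mice 1 to 5 had 74.5, 56.6, 63.6, 91.1 and 96.7 counts per 1000000 (CPM, with library sizes scaled by TMM factors), and *Supt6*-KO mice 1 to 4 had 28.6, 24.1, 21.9 and 28.4 CPM. The groups did not overlap, and *Supt6* fell by 1.57 on the log2 scale (SE 0.18, adjusted p = 1.3e-05 by edgeR's quasi-likelihood test over all genes tested, as for every adjusted p of a gene here, unless another fit is named). The log2 fold change of *Supt6*, whose transcript is 6488 bases long, was -0.74 with the trend of expression differences over transcript length, described for *Hspe1*, removed per mouse (the length correction) and -2.26 with library totals. A count per gene also takes in exons outside the deleted ones and cells in which keratin 14 is not active.

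Of the 10 chaperone genes, 3 rose, 4 fell and 3 did not pass the test in *Supt6*-KO skin at an adjusted p under 0.05. Over all 16426 genes, 34.1% were called higher and 36.8% lower, so a share of this size in either direction is near the background of the whole table. *Hspe1*, *Hspa8* and *Dnajb1* were higher in every *Supt6*-KO mouse than in any control mouse, against 28.9% of all genes. *Hspa1a*, *Hspa1b*, *Hspb1* and *Bag3* were lower in every *Supt6*-KO mouse than in any control mouse, against 31.8% of all genes. With a change of at least 2-fold required as well, 1 member was called higher (background 20.9%) and 3 were called lower (background 24.9%). The median log2 fold change of the 10 members was -0.27, against -0.07 over the whole table.

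**Figure D1:**
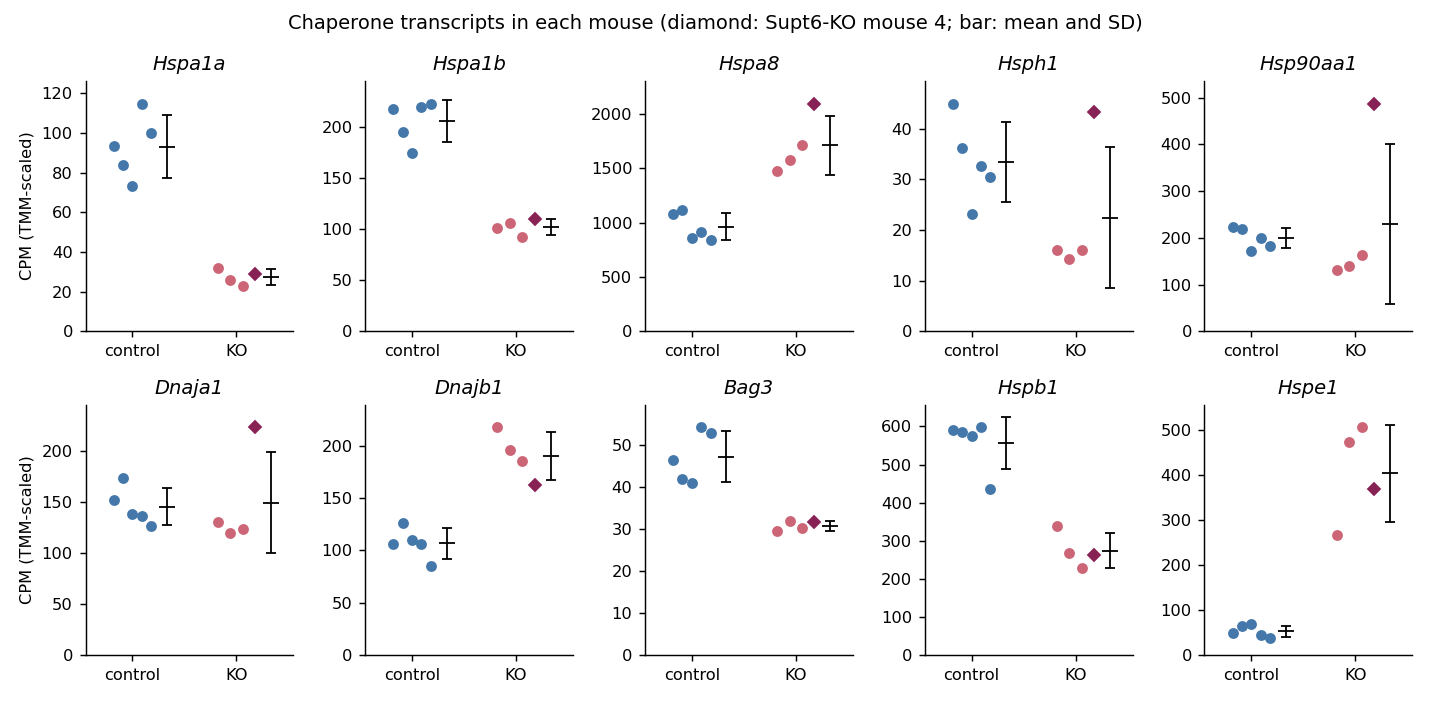
CPM of the 10 chaperone genes (y axis, TMM-scaled, starting at 0) in each control and *Supt6*-KO mouse, with the mean and SD of each group as bars and *Supt6*-KO mouse 4 as a diamond. *Hspa1a*, *Hspa1b*, *Bag3* and *Hspb1* lie lower and *Hspa8*, *Dnajb1* and *Hspe1* higher in all 4 *Supt6*-KO mice, whereas *Hsph1*, *Hsp90aa1* and *Dnaja1* split between mouse 4 and the other 3.

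Levels of different genes can be compared per transcript length only in the control mice, for which transcripts per 1000000 (TPM) were deposited for all 5 animals. *Hspb1* was the most abundant member at 1512 ± 141.6 TPM (SD, n = 5), followed by *Hspa8* at 851.8 ± 97.8 TPM. *Hspe1* had 182.9 ± 24.5, *Hspa1b* 132.7 ± 28.0 and *Hsp90aa1* 124.6 ± 16.9 TPM, and each of these overlapped its neighbour within 1 SD. *Dnaja1* had 74.6 ± 5.74 TPM. *Dnajb1* and *Hspa1a* stood next to each other at 62.1 ± 3.01 and 60.3 ± 15.9 TPM and overlapped within 1 SD. *Bag3*, at 33.5 ± 8.2 TPM, and *Hsph1*, at 16.8 ± 4.33 TPM, were the least abundant. The cognate HSP70 gene thus stood far above the inducible pair in control skin, and the small heat shock protein above both.

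*Hspa1a* and *Hspa1b* encode the stress-inducible HSP70 and are single-exon neighbours on the minus strand of chromosome 17, at chr17:34969190-34972156 and chr17:34956436-34959238 of GRCm38. Their coding sequences, the longest open reading frames of the annotated transcripts, were identical at 1918 of 1926 aligned bases (99.6%), so the estimated counts may divide shared reads between both rows. The 150 bases before their starts were identical at 149 positions. They are printed, although they lie outside the transcripts that were counted, because 2 genes with nearly the same upstream sequence both fell, from RefSeq promoter windows of GRCm38.p6, with the 2-unit heat shock element match (GAANNTTC or TTCNNGAA, each of which reads the same on both strands) in capitals.
Hspa1a, minus strand, chr17:34972157-34972306: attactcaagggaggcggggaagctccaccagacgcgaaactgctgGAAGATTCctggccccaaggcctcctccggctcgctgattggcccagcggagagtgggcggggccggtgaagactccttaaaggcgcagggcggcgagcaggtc
Hspa1b, minus strand, chr17:34959239-34959388: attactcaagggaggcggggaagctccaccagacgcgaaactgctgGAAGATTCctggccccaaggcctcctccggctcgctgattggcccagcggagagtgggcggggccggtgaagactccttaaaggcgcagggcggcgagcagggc
Both windows held 1 such match, starting 104 bases before the start site, and no 3-unit match (GAANNTTCNNGAA or, on the other strand, TTCNNGAANNTTC). Of 32851 windows of 300 bases, 15.1% held a 2-unit match and 0.603% a 3-unit match.

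*Hspa1a* had 93.6, 84.0, 73.0, 114.7 and 99.9 CPM in control mice 1 to 5 and 32.0, 25.7, 22.7 and 29.0 CPM in *Supt6*-KO mice 1 to 4. It fell by 1.77 on the log2 scale (SE 0.16, adjusted p = 2.9e-06), which left 29.4% of the control mean, by 1.65 with the trend over transcript length removed and by 2.45 with library totals. For *Hspa1b* the control mice had 218.1, 195.9, 174.4, 220.1 and 223.1 CPM and the *Supt6*-KO mice 100.9, 105.8, 92.1 and 109.9 CPM. *Hspa1b* fell by 1.01 on the log2 scale (SE 0.12, adjusted p = 1.9e-05), and by 1.71 with library totals. Summed over both rows, which does not depend on how shared reads were divided, the pair had 299.4 ± 35.5 CPM in control skin (n = 5) and 129.5 ± 10.4 CPM in *Supt6*-KO skin (n = 4), or 43.3% of control, with an exact two-sided permutation p = 0.0159, the smallest that 4 against 5 mice allow. In the edgeR fit the sum fell by 1.21 on the log2 scale (SE 0.13, adjusted p = 9.8e-06). The ratio of *Hspa1a* to *Hspa1b* within a library also differed, from 0.419 to 0.521 in control mice and from 0.243 to 0.318 in *Supt6*-KO mice. A transcript annotated on the other strand, *Gm20481*, overlaps *Hspa1a*, and whether counting used strand is not given in the sources used here.

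*Hspa8* encodes the constitutive HSP70, HSC70, which serves protein folding, uncoating of clathrin vesicles and chaperone-mediated autophagy, and moved the opposite way. Control mice had 1076, 1115, 861.8, 914.1 and 844.4 CPM and *Supt6*-KO mice 1474, 1575, 1714 and 2096 CPM. Every *Supt6*-KO mouse was above every control mouse. *Hspa8* rose by 0.83 on the log2 scale (SE 0.17, 1.78-fold, adjusted p = 0.00081). The count ratio of the inducible pair to *Hspa8* within a library, which needs no scaling between libraries, was 0.290, 0.251, 0.287, 0.366 and 0.383 in control mice and 0.0903, 0.0835, 0.0669 and 0.0663 in *Supt6*-KO mice. This was a 4.09-fold drop (exact two-sided permutation p = 0.0159, adjusted over 7 ratios 0.0222), lower in 4 of 4 *Supt6*-KO mice. With library totals in place of TMM factors, the log2 fold change of *Hspa8* was 0.16 (adjusted p = 0.46), while the ratio is unaffected by that choice.

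*Hsph1* encodes HSP105, an HSP110 protein that exchanges nucleotide on HSP70 and helps to dissolve aggregates. Both of its RefSeq windows hold the same 3-unit heat shock element match, just after the start. The match begins at base 16 or at base 37, depending on the annotated start. Bases below are counted from the start that gives 16. The match is shown because, of the 8 members with a window, *Hsph1* and *Hspe1* alone had such a match, with the letters matched in capitals, read on the minus strand at chr5:149636280-149636308 of GRCm38.p6.
Hsph1, bases 8 to 36 after the start: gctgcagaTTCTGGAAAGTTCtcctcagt
Control mice had 44.9, 36.1, 23.2, 32.6 and 30.4 CPM of *Hsph1*. *Supt6*-KO mice 1 to 3 had 16.1, 14.2 and 16.1 CPM, below every control mouse, whereas mouse 4 had 43.3 CPM, near the top of the control range. Over all 9 mice the log2 fold change was -0.57 (SE 0.33, adjusted p = 0.13), which did not pass the test. Without mouse 4 it was -1.12 (SE 0.19, adjusted p = 0.00028). Relative to *Hspa8* in the same library, *Hsph1* counts fell 2.91-fold (exact permutation p = 0.0159, adjusted 0.0222), with mouse 4 included and below all control mice. With the length correction *Hsph1* was at -0.24 (adjusted p = 0.50) and *Hspa8* at 0.78 (adjusted p = 0.00055).

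*Hsp90aa1* encodes the stress-inducible cytosolic HSP90 alpha, and no promoter window of it or of *Hspa8* was in the RefSeq table. In control mice it had 222.2, 217.9, 172.2, 199.2 and 183.0 CPM. *Supt6*-KO mice 1 to 3 had 130.1, 139.5 and 163.6 CPM, below the control range, and mouse 4 had 487.1 CPM, above all others. The log2 fold change over all mice was 0.21 (SE 0.35, adjusted p = 0.60). Without mouse 4 it was -0.47 (SE 0.12, adjusted p = 0.0056), so that 1 library set both the sign and the call. *Hsp90ab1*, the constitutive HSP90 beta, was at 1466 ± 95.2 CPM in control and 1665 ± 136.7 CPM in *Supt6*-KO skin, a log2 fold change of 0.18 (adjusted p = 0.26). The count ratio of *Hsp90aa1* to *Hsp90ab1* was 0.124 to 0.147 in control mice, 0.0796, 0.0845 and 0.0884 in *Supt6*-KO mice 1 to 3, and 0.320 in mouse 4. With all mice the log2 ratio differed by -0.20 (exact permutation p = 0.635), and without mouse 4 by -0.69 (exact permutation p adjusted over 7 ratios 0.0357). That p is the smallest that 3 against 5 mice allow. Mouse 4 alone had kept the groups from separating, so leaving it out set this p, which gives no support.

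*Dnaja1* and *Dnajb1* encode J-domain proteins, which are also known as HSP40 co-chaperones. *Dnaja1* had 152.2, 173.5, 138.8, 136.6 and 126.3 CPM in control mice. In *Supt6*-KO mice 1 to 3 it had 130.5, 119.7 and 124.0 CPM, the last 2 of them below every control mouse, and in mouse 4 223.3 CPM, above all others. Its log2 fold change was 0.04 (SE 0.19, adjusted p = 0.87), and -0.23 (adjusted p = 0.094) without mouse 4. With the trend over transcript length removed per mouse, *Dnaja1* was called higher, at 0.71 (adjusted p = 0.0074), so that in this fit 4 members were called higher (36.1% of 16311 genes) and 4 lower (31.7%). *Dnajb1*, which delivers clients to HSP70 and is itself heat-inducible, had 105.7, 126.5, 109.9, 106.4 and 84.7 CPM in control mice and 217.5, 196.3, 185.0 and 162.9 CPM in *Supt6*-KO mice. It rose by 0.84 on the log2 scale (SE 0.14, 1.79-fold, adjusted p = 0.0002), and here mouse 4 was the lowest of the *Supt6*-KO mice. Scaled by library totals, *Dnajb1* was at 0.14 and did not pass (adjusted p = 0.37). Neither of the 2 RefSeq windows of *Dnajb1* held a 2-unit or 3-unit match. A window of *Dnaja1* held 1 2-unit match, starting 124 bases before its start, and its other windows held none. The window of *Bag3* held 1 2-unit match, at base 43 after the start. No 3-unit match lay in the windows of *Dnaja1* or *Bag3*. The ratio of *Dnajb1* to *Dnaja1* was 0.671 to 0.792 in control mice, 1.67, 1.64 and 1.49 in *Supt6*-KO mice 1 to 3, and 0.730 in mouse 4, within the control range, and the difference did not pass after adjustment (exact permutation p = 0.0476, adjusted 0.0556). Without mouse 4 the log2 ratio differed by 1.13 (exact permutation p adjusted over 7 ratios 0.0357). Here too this is the smallest p that 3 against 5 mice allow, set by leaving out the mouse that overlapped, and it gives no support. With the length correction both genes were called higher, *Dnajb1* at 0.97 (adjusted p = 6.7e-05). The other-strand gene *Smu1* overlaps *Dnaja1* in the annotation.

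*Bag3* encodes a co-chaperone that couples HSP70 and small heat shock proteins to autophagy. Control mice had 46.5, 41.9, 41.0, 54.3 and 53.1 CPM and *Supt6*-KO mice 29.5, 31.9, 30.3 and 31.8 CPM, with no overlap and a narrow spread in the *Supt6*-KO group. *Bag3* fell by 0.62 on the log2 scale (SE 0.12, adjusted p = 0.00058), and by 1.32 with library totals. *Bag1*, which also exchanges nucleotide on HSP70 but works with the proteasome, rose from 206.7 ± 39.0 CPM (n = 5) to 482.4 ± 124.6 CPM (n = 4), or 1.22 on the log2 scale (SE 0.20, adjusted p = 0.00022). The log2 fold change of *Bag1* was 0.50 with library totals (adjusted p = 0.016) and 0.58 with the trend over transcript length removed (adjusted p = 0.0064). The ratio of *Bag3* to *Bag1* was 0.167 to 0.350 in control mice and 0.0508 to 0.0959 in *Supt6*-KO mice, a 3.52-fold drop (exact permutation p = 0.0159, adjusted 0.0222), whereas the length correction left *Bag3* at -0.62 and *Bag1* at 0.58.

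*Hspb1* encodes HSP25, the mouse counterpart of human HSP27, an abundant small heat shock protein of differentiating keratinocytes. Its 2-unit matches, in capitals, lie upstream of the start on the plus strand at chr5:135887769-135887918 of GRCm38.p6 and are shown because *Hspb1* was the most abundant member.
Hspb1, bases 150 to 1 before the start: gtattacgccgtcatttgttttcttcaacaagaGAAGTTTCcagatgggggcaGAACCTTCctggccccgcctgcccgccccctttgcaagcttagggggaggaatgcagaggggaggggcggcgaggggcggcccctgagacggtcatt
*Hspb1* had 590.3, 586.1, 573.7, 597.4 and 434.8 CPM in control mice, of which mouse 5 was the lowest by far, and 337.8, 266.6, 228.3 and 262.0 CPM in *Supt6*-KO mice. It fell by 1.02 on the log2 scale (SE 0.16, 2.03-fold, adjusted p = 0.00014), by 1.71 with library totals and by 2.02 with the length correction. Markers of other cells moved with it: of 10 skeletal muscle genes tested 9 fell and none rose, with a median log2 fold change of -2.42, and their summed level was 5004, 5276, 5552, 4130 and 4456 CPM in control and 1193, 1659, 1418 and 962.0 CPM in *Supt6*-KO mice, led by *Acta1* and with no marker at 0. Of 6 basal keratinocyte genes 5 fell, while 2 of 5 suprabasal genes, *Krt1* and *Krtdap*, rose. The whole table had 36.8% called lower and 34.1% higher. What part these shifts in the cell mixture had in the level of *Hspb1* was not tested, and in bulk skin fewer cells of a type and less RNA per cell cannot be told apart.

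*Hspe1* encodes HSP10, the lid of the mitochondrial HSP60 chaperonin, and lies head to head with *Hspd1*, which encodes HSP60. On GRCm38 *Hspe1* is at chr1:55088132-55091307 on the plus strand and *Hspd1* at chr1:55077835-55088243 on the minus strand, so that their 5′ ends overlap. RefSeq gives 2 starts for *Hspd1*, 1 of them 216 bases before the *Hspe1* start and the other past it, inside *Hspe1*. A pair of overlapping 3-unit matches lies at 89 and 84 bases before the *Hspe1* start, between it and the first of these *Hspd1* starts, whose window holds the same letters on the other strand, while the window of the other *Hspd1* start holds none. They are printed because windows of both genes hold them, in capitals on the plus strand of chr1:55088053-55088082.
Hspe1, bases 95 to 66 before the start: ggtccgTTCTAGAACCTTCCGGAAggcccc
*Hspe1* had 48.2, 63.4, 67.7, 45.2 and 37.1 CPM in control mice and 266.5, 473.9, 505.6 and 368.4 CPM in *Supt6*-KO mice. It rose by 2.95 on the log2 scale (SE 0.23, 7.71-fold, adjusted p = 1.4e-06), the largest rise among the 10 genes, and by 2.24 with library totals. *Hspd1*, its chaperonin partner, had 198.7, 180.1, 159.2, 179.4 and 163.5 CPM in control mice, 147.1, 135.0 and 153.8 CPM in *Supt6*-KO mice 1 to 3 and 411.1 CPM in mouse 4. *Hspd1* had a log2 fold change of 0.27 (adjusted p = 0.44), and of -0.28 (adjusted p = 0.031) without mouse 4. Within a library the ratio of *Hspe1* to *Hspd1* counts was 0.243, 0.352, 0.426, 0.252 and 0.227 in control mice and 1.81, 3.51, 3.29 and 0.896 in *Supt6*-KO mice, a 7.15-fold rise (exact permutation p = 0.0159, adjusted 0.0222) that takes no account of transcript length. *Hspe1* is short, with a longest transcript of 774 bases, and fold changes over all genes moved with transcript length, from a median of 1.29 for 1064 genes under 1000 bases to -0.85 for 3237 genes of at least 5000 bases. With that trend removed per mouse, *Hspe1* still rose by 1.78 (adjusted p = 3.8e-06) and *Hspd1* was at 0.22 (adjusted p = 0.53), while *Hspb1*, of similar length at 930 bases, fell by 2.02 (adjusted p = 3.5e-06). Processed pseudogenes of *Hspe1* are annotated, and reads that match them as well are uncertain.

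**Figure D2:**
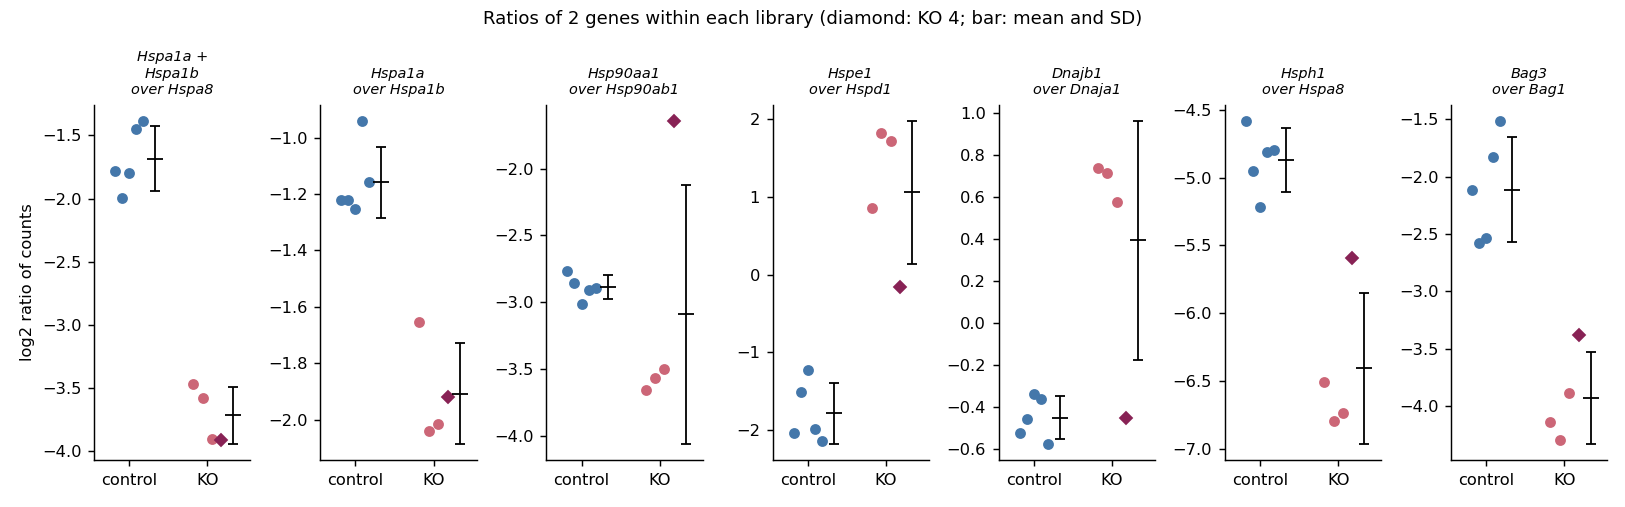
Log2 ratio of the estimated counts of 2 genes within the same library (y axis) for 7 gene pairs, 1 point per mouse, with the mean and SD of each group as bars and *Supt6*-KO mouse 4 as a diamond. The groups are separate for 5 pairs, and mouse 4 crosses into or beyond the control range for *Hsp90aa1* over *Hsp90ab1* (0.320) and *Dnajb1* over *Dnaja1* (0.730).

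*Supt6*-KO mouse 4 divided the members. Its level over the mean of the other *Supt6*-KO mice was 1.75 on the log2 scale for *Hsp90aa1*, above that of 98.8% of the 13019 genes with at least 1 CPM in the group, 1.49 for *Hsph1* (above 98.0%) and 0.84 for *Dnaja1* (above 91.6%). *Hspa8* was higher by 0.40. For *Hspa1a*, *Hspa1b* and *Bag3* the differences were 0.12, 0.14 and 0.05, and for *Hspb1*, *Hspe1* and *Dnajb1* -0.08, -0.17 and -0.29, so these 6 genes were near their levels in the other *Supt6*-KO mice. Mouse 4 was the highest of its group for 5 of the 10 members, and for 38.0% of those 13019 genes. Outside the members, *Hspd1* was higher in mouse 4 by 1.50, *Hsp90b1*, the endoplasmic reticulum HSP90, by 1.18 and *Hspa5*, the endoplasmic reticulum HSP70, by 0.90. Other related genes were lower in mouse 4, with *Hspa12a* at -1.92, *Pfdn5* at -1.38, *Bag1* at -0.68 and *Hsp90ab1* at -0.17. Of 11 other HSP70 and HSP110 genes 10 were highest of the *Supt6*-KO group in mouse 4, and of 6 prefoldin genes 1. The 4 hyperproliferative keratin genes, led by *Krt16*, were all highest in mouse 4 as well, with a summed level of 22838 CPM against 5513, 2949 and 5377 CPM in *Supt6*-KO mice 1 to 3 and 274.1 to 563.6 CPM in control mice. Suprabasal markers summed to 20397 CPM in mouse 4 and 39858 to 42447 CPM in the other *Supt6*-KO mice. Basal keratinocyte markers, led by *Krt14*, summed to 13902 CPM in mouse 4, against 8196, 5583 and 6814 CPM in *Supt6*-KO mice 1 to 3 and 11169 to 12768 CPM in control mice. *Krt14* was the largest part of that sum, at 9613 CPM in mouse 4 and 2972 to 4730 CPM in the other 8 mice. *Krt5* (3669 CPM), *Itga6* (244.3 CPM) and *Itgb4* (24.9 CPM) were also highest of the *Supt6*-KO mice in mouse 4, though below every control mouse. *Krt15*, at 238.6 CPM, and *Col17a1*, at 111.6 CPM, were lowest in mouse 4. In the deposited table mouse 4 is also the only *Supt6*-KO mouse with TPM values. What part any of these had in its chaperone levels was not tested.

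Without mouse 4, 3 members were called higher (35.1% of 16335 genes) and 6 lower (39.1%), since *Hsph1* and *Hsp90aa1* joined the 4 genes that fell. Across the 9 mice, with each group centred on its mean, log2 CPM of *Hsph1* followed that of *Hsp90aa1* with r = 0.94, and that of *Hsp90aa1* followed *Dnaja1* with r = 0.92. Over the 8 mice without mouse 4 these values were 0.76 and 0.51. *Hspa1a* and *Hspe1* ran against each other, with r = -0.87. Genes in a library share its scaling, so these correlations are a description only. The closest followers of the summed *Hspa1a* and *Hspa1b* among 9528 genes of at least 10 CPM were *Ercc6* (r = 0.978), *Edem3* (r = 0.975) and *Arhgap17* (r = 0.954), and those of *Hspe1* were *Mrps33* (r = 0.991), *Pam16* (r = 0.986) and *Tma7* (r = 0.983), each over 9 mice. Among them *Pam16* and *Mrps33* encode mitochondrial proteins, a subunit of the import motor that contacts mitochondrial HSP70 and a ribosomal protein. None of the correlations in this paragraph used length-corrected values. What part the trend over transcript length, described for *Hspe1*, had in them was not tested.

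**Figure D3:**
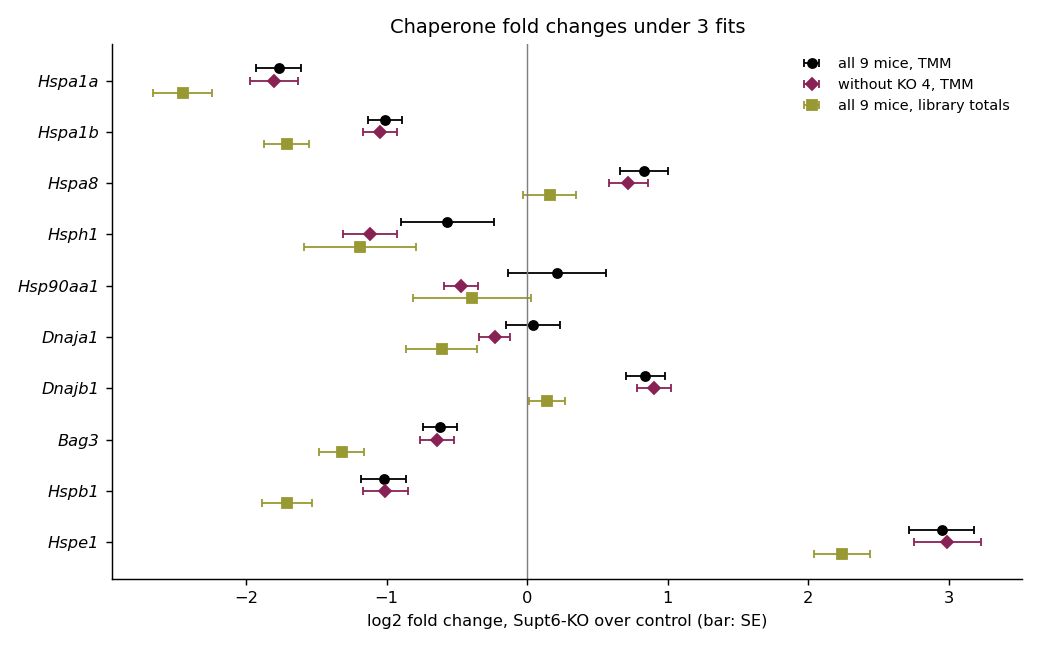
Log2 fold change of *Supt6*-KO over control (x axis, bars are SE) of the 10 members with all 9 mice and TMM factors, without *Supt6*-KO mouse 4, and with all mice and library totals. Leaving out mouse 4 moved *Hsph1*, *Hsp90aa1* and *Dnaja1* down and left the calls of the other 7 as they were, and library totals moved all 10 down.

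*Hspa8* and *Dnajb1*, which rose with TMM factors, did not pass the test when libraries were scaled by their totals. TMM factors were 1.198 to 1.315 in control and 0.674 to 0.910 in *Supt6*-KO libraries, and library totals shifted the median over all genes from -0.07 to -0.76 (log2), with 2771 genes called higher (16.9%) and 8970 lower (54.6%). On that scale 1 member, *Hspe1*, was called higher and 6 lower, as *Hsph1* (-1.19, adjusted p = 0.018) and *Dnaja1* (-0.61, adjusted p = 0.046) were added. *Hspa8* at 0.16 and *Dnajb1* at 0.14 still stood above the shifted median. The summed level of the 10 genes depended on this choice in direction. With TMM factors it was 2598, 2641, 2236, 2421 and 2117 CPM in control mice and 2735, 2949, 3082 and 3813 CPM in *Supt6*-KO mice, higher in every *Supt6*-KO mouse, with *Hspa8* giving the most counts, not corrected for length. As a share of all counts it was 0.298% ± 0.0223 in control libraries (n = 5) and 0.244% ± 0.0690 in *Supt6*-KO libraries (n = 4), a difference that did not pass an exact permutation test (p = 0.127). *Supt6*-KO mice 1 to 3 had 0.214%, 0.199% and 0.218%, below every control mouse (0.273% to 0.323%), and mouse 4 had 0.347%, above them. Without *Hspa8*, left out after its values were seen and so given with no test, the share was 0.167% to 0.189% in control mice, 0.0985%, 0.0925% and 0.0966% in *Supt6*-KO mice 1 to 3 and 0.156% in mouse 4.

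Transcripts of the heat shock factors, which drive these genes, were measured alongside. *Hsf1*, the main heat-responsive factor, fell from 18.7 ± 1.86 CPM (n = 5) to 10.5 ± 3.16 CPM (n = 4), by 0.83 on the log2 scale (adjusted p = 0.0026), and *Hsf2* fell by 0.96 (adjusted p = 0.00026). *Hsbp1*, whose product binds and dampens HSF1, rose from 71.6 ± 9.63 to 188.6 ± 28.1 CPM, by 1.40 on the log2 scale (adjusted p = 6.1e-06), by 0.69 with library totals and by 0.63 with the length correction. *Hsf4* and *Hsf5* were under 1 CPM on average in both groups, with log2 fold changes of -0.03 and -0.01. Activity of HSF1 is set largely on the protein, which these data do not measure.

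Other genes of the members' families (HSP70 and HSP110, HSP90 and its co-chaperones, J-domain, BAG and cofactors, and small heat shock proteins) numbered 82 among those tested, of which 29 (35.4%) were called higher and 21 (25.6%) lower, with a median log2 fold change of 0.14. With heat shock factors, mitochondrial chaperones and proteases, TRiC and prefoldin added, the lists held 110 genes, of which 109 were tested, with 48 called higher and 24 lower, against 34.1% and 36.8% of the whole table, and a median log2 fold change of 0.27, against -0.07. With library totals the balance turned, to 10 higher and 44 lower among the 82 genes, and among the 109 to 23 higher and 48 lower and a median of -0.39, against -0.76 over the whole table. Among 11 other HSP70 and HSP110 genes 3 rose and 4 fell. *Hspa14*, a ribosome-associated HSP70, rose by 1.07 (adjusted p = 4.7e-05) and *Hspa5*, also called BiP, by 0.87 (adjusted p = 0.0026), while *Hspa2*, a testis-enriched HSP70, fell by 3.45 (adjusted p = 1.2e-06) from 44.7 to 4.04 CPM and *Hspa12a* by 2.92 (adjusted p = 4.2e-05). With library totals *Hspa14* at 0.40 and *Hspa5* at 0.22 did not pass (adjusted p = 0.079 and 0.46). None of the 3 other HSP90 genes, *Hsp90ab1*, *Hsp90b1* and *Trap1*, passed the edgeR test, at log2 fold changes of 0.16 to 0.19. DESeq2 called *Hsp90ab1* higher, at 0.25 (adjusted p = 0.025), and the edgeR fit with library totals called it lower, at -0.52 (adjusted p = 0.0034).

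Counts in the next 3 lists stand against 34.1% of all genes called higher and 36.8% lower. With library totals these shares were 16.9% and 54.6%. Of 13 HSP90 co-chaperones 6 rose and 1 fell, and with library totals 2 were called higher and 4 lower. The highest were *Ptges3*, the p23 protein that stabilizes the closed HSP90 dimer, at 1.43 (adjusted p = 1.5e-05), and *Sugt1*, an adaptor for leucine-rich repeat clients, at 1.24 (adjusted p = 8e-06). *Fkbp5*, an immunophilin of steroid receptor complexes and a glucocorticoid target, fell from 213.8 ± 54.6 CPM (n = 5) to 33.3 ± 10.1 CPM (n = 4), by 2.68 on the log2 scale (adjusted p = 4e-06). Among 38 other J-domain genes 15 rose and 9 fell. *Dnajc15*, a mitochondrial J-domain protein, rose by 2.58 (adjusted p = 1.6e-06) and *Dnajc24*, of diphthamide synthesis, by 1.89 (adjusted p = 3.2e-06), whereas *Dnajb5* fell by 1.82 (adjusted p = 4.9e-06) and *Dnajc16* by 1.75 (adjusted p = 8.8e-05). The J-domain counts became 6 higher and 22 lower with library totals. Of 9 other BAG genes and HSP70 cofactors 5 rose, with *Bag2* at 2.70 (adjusted p = 1e-05) and *Bag1* the highest, and 2 fell, *Bag6* at -1.40 (adjusted p = 2.5e-05) and *Sil1*, the exchange factor of *Hspa5*, at -0.39 (adjusted p = 0.013). The counts of this list became 2 higher and 4 lower with library totals.

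Of 8 other small heat shock protein genes tested, 5 fell, as *Hspb1* did, and none passed the edgeR test upward. Over all genes tested, 36.8% were called lower, 54.6% with library totals and 31.7% with the length correction. *Hspb6*, also called HSP20, fell from 83.9 ± 5.99 CPM (n = 5) to 12.1 ± 2.65 CPM (n = 4), by 2.79 on the log2 scale (adjusted p = 2e-07), and *Hspb7* by 2.00 (adjusted p = 1.8e-06). *Cryab*, the alpha B-crystallin, fell by 1.06 (adjusted p = 1.4e-05), and the scarcer *Hspb3* and *Cryaa* by 1.29 (adjusted p = 0.00065) and 1.60 (adjusted p = 0.0045). *Hspb2* at -0.51, *Hspb8* at -0.24 and *Hspb9* at 1.03 did not pass. *Hspb2* and *Hspb8* were called lower with library totals (-1.25 and -0.95) and with the length correction (-1.74 and -0.56), so that 7 of 8 were lower in either fit, and without *Supt6*-KO mouse 2 *Hspb2* was called at -0.80 (adjusted p = 0.0082). *Hspb2*, *Hspb3*, *Hspb6*, *Hspb7* and *Cryab* are known as muscle-rich, and the skeletal muscle markers given above for *Hspb1* fell in the same libraries; what part they had in these 5 genes was not tested.

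Of 10 mitochondrial chaperones and proteases 5 rose, led by *Grpel1*, the nucleotide exchange factor of mitochondrial HSP70, at 2.12 (adjusted p = 1.8e-06) and *Clpp*, a matrix protease, at 1.49 (adjusted p = 2e-06), and 1 fell, the protease gene *Lonp1* at -0.54 (adjusted p = 0.033). The call of *Lonp1* held in 9 of 19 alternatives, and its groups overlapped, with 51.9 to 56.9 CPM in control mice, 33.5, 26.8 and 30.7 CPM in *Supt6*-KO mice 1 to 3 and 60.2 CPM in mouse 4. *Clpp* was 0.55 with the length correction and 0.80 with library totals, and still called. Without mouse 4 the counts were 4 higher and 4 lower, and with library totals 3 higher and 3 lower. Shares over all genes were 34.1% higher and 36.8% lower with all mice, 35.1% and 39.1% without mouse 4, and 16.9% and 54.6% with library totals. Genes of both cytosolic folding complexes rose. Of 9 genes of the TRiC chaperonin, which folds actin and tubulin, 8 rose, with a median of 1.00 and *Cct6a* and *Cct5* at 1.44 (adjusted p = 3e-05) and 1.34 (adjusted p = 1.4e-05), and the ninth, *Cct6b*, stayed under 1 CPM. All 6 prefoldin genes, whose products pass clients to TRiC, rose, with a median of 1.79 (0.91 and 5 called with the length correction, and 1.09 with library totals) and *Pfdn1* and *Pfdn5* at 2.08 (adjusted p = 1e-06) and 1.85 (adjusted p = 0.0002). With library totals 3 TRiC genes were called higher and none lower. The length correction also moved other named genes by over 1.5-fold with their direction and call kept, to 1.24 for *Pfdn1*, 0.92 for *Pfdn5*, 2.10 for *Sugt1*, 3.35 for *Dnajc15*, 1.12 for *Dnajc24*, -1.0 for *Dnajc16*, -2.19 for *Hspa12a*, -1.88 for *Cryab*, -2.32 for *Cryaa*, -2.46 for *Hspb3* and -3.41 for *Hspb6*.

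**Figure D4:**
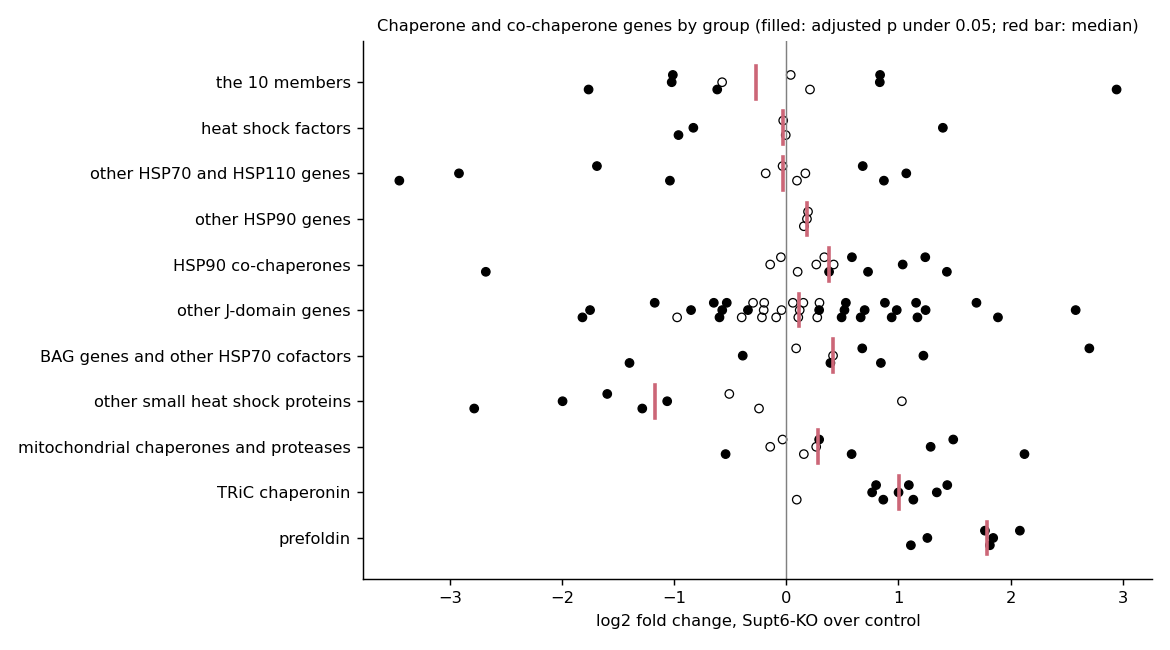
Log2 fold change of *Supt6*-KO over control (x axis) for each tested gene of the 10 members and of 10 related groups, filled where the adjusted p was under 0.05, with the group median as a red bar. The 6 prefoldin genes and 8 of 9 TRiC genes lie to the right, 5 of 8 small heat shock proteins are filled to the left, and the members spread from -1.77 to 2.95.

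Of the other marker lists, 5 of 6 neutrophil genes rose (median 4.57), as did 4 of 5 macrophage (the other, *Csf1r*, fell), all 5 melanocyte and all 4 hyperproliferative keratin genes, whereas 6 of 7 hair shaft and inner root sheath genes fell, as did 4 of 6 fibroblast, 4 of 5 adipocyte, 3 of 5 smooth muscle (1 rose), all 5 endothelial and 3 of 5 T cell genes. The hair genes summed to 1893, 156.0, 632.6 and 383.2 CPM in control mice 1 to 4 but to 4.86 CPM in control mouse 5, below all *Supt6*-KO mice (15.4 to 73.5 CPM), and of the 7 tested 3 did not overlap between groups. Among all genes, 31.8% were lower without overlap. Of 14 immediate early genes, which respond to handling and stress within minutes, 3 rose and 6 fell. The whole table had 34.1% called higher and 36.8% lower, so the 6 of 14 that fell are near that background. Scaled by library totals, 2 macrophage, 3 melanocyte, 3 hyperproliferative keratin and 4 neutrophil genes were called higher. On that scale 16.9% of all genes were called higher and 54.6% lower. All 6 fibroblast and all 5 T cell genes were then called lower, as were 3 suprabasal genes, with 2 higher, and 9 immediate early genes, with 1 higher. All 5 cartilage genes fell, with sums of 278.4 to 754.7 CPM in control and 37.3 to 47.7 CPM in *Supt6*-KO libraries. The labels name the ear and the methods dorsal skin, and whether both groups were sampled at the same site was not tested. Counts of 4 Y-linked genes summed to 3 and 2 in control mice 1 and 3, to 5968 to 7345 in the other control mice and to 5483 to 6465 in *Supt6*-KO mice. Without those 2 control mice the members again had 3 called higher and 4 lower, against 31.0% and 33.5% of 16232 genes. What part the cell mixture had in the chaperone values was not tested.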

How the data were processed

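Bulk mRNA of skin was sequenced as paired reads on the DNBSEQ platform. Per the labels, the authors used mm10, Bowtie2 2.3.4.3 and RSEM 1.3.1, with HISAT and DESeq2 1.4.5 also named; the annotation release and strand setting are not given in the sources used here. The deposited table holds RSEM estimated counts per gene for all 9 mice, not scaled between mice, and the authors' TPM for 6 of them. Rows carry NCBI gene IDs or symbols, 17911 of 17943 were matched to RefSeq and 32 were not. All value columns named a listed mouse.

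Estimated counts were rounded and fitted with edgeR 4.0.16 (quasi-likelihood test, TMM, genes with at least 10 counts summed over the mice, Benjamini-Hochberg over 16426 genes, R 4.3.3), 5 control against 4 *Supt6*-KO mice without covariates. The study used DESeq2, which was run as an alternative (1.42.0). In simulated counts with 200 genes changed 4-fold among 16332 genes, edgeR recovered 200 and called 8 unchanged genes. That simulation had few changed genes, balanced in direction, a fixed spread and no shift between the groups. It therefore does not test the TMM scaling on which the calls of *Hspa8* and *Dnajb1* depend. Ratios had 0.5 added to each count and exact two-sided permutation tests over the 126 regroupings of 9 mice (SciPy 1.17.1), adjusted over 7. Total counts were 29627341 to 30491197 in control and 30597189 to 30967107 in *Supt6*-KO libraries, while TMM factors differed between the groups (1.198 to 1.315 against 0.674 to 0.910). P-values measure the spread between mice. CPM shown are TMM-scaled.

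The members and lists were chosen with earlier results of these data known. Named genes are *Supt6*, the members, genes of the ratios, the 2 largest called changes in each direction per chaperone list with at least 1 CPM, every heat shock factor, HSP90 and small heat shock protein gene, and the 3 genes most like the Hspa1 sum and *Hspe1*. Marker genes named beside a list, and *Supt6*-KO mouse 4 comparisons, were chosen after their values were seen. Alternatives were library totals, RLE and upper-quartile factors, DESeq2, other filters, no abundant genes, a replicate block, a correction for transcript length (longest protein-coding GENCODE vM21 transcript) and each mouse left out. Promoter windows came from RefSeq, build GRCm38.p6, and gene positions from GENCODE, the same assembly as mm10.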

Additional observations from a re-analysis of the deposited data

Results flagged for a closer look

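Within each group, the gap of the most extreme mouse to its neighbour was set against the whole range by Dixon's critical values for 120 groups of values (named genes, ratios and shares), and 15 were singled out, where chance gives about 1 in 20, or 6. Of these, 12 were on the high side in *Supt6*-KO mouse 4. They were *Hsp90aa1* at 487.1 CPM (group median 151.5), *Hsph1* at 43.3 CPM (16.1), *Dnaja1* at 223.3 CPM (127.3), *Hspd1* at 411.1 CPM (150.4), *Hsp90b1* at 501.8 CPM (233.9), *Hspa5* at 871.9 CPM (482.5), *Hspa14* at 112.8 CPM (81.0) and *Cct6a* at 628.1 CPM. The ratios of *Hsp90aa1* to *Hsp90ab1*, at 0.320, and of *Hsph1* to *Hspa8*, at 0.0207, stood apart in the same mouse, as did the share of the library taken by the 10 members, at 0.347%, and by the members without *Hspa8*, at 0.156%.

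Among control mice, mouse 5 was low for *Hspb1* at 434.8 CPM (group median 586.1), mouse 1 was high for *Hspa5* at 366.1 CPM (305.0), and mouse 4 was high for the ratio of *Hspa1a* to *Hspa1b* at 0.521 (0.429).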

How the results depend on the processing

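*Supt6*, *Hspa1a*, *Hspa1b*, their sum, *Hspb1*, *Bag3* and *Hspe1* kept their direction and call in all 19 alternatives each. With library totals *Hspa8* was 0.16 (adjusted p = 0.46), *Dnajb1* 0.14 (0.37), *Hsph1* -1.19 (0.018), *Hsp90aa1* -0.39 and *Dnaja1* -0.61, members called higher 1 and all genes called higher 2771; *Hspd1* was -0.35, *Hsp90ab1* -0.52, *Hsp90b1* -0.44 and *Trap1* -0.49. List counts then were 0 higher (other HSP70 and HSP110), 1 lower (other HSP90), 2 higher and 4 lower (HSP90 co-chaperones), 6 and 22 (J-domain), 2 and 4 (BAG and cofactors), 3 and 3 (mitochondrial) and 3 higher (TRiC). The length correction gave *Dnaja1* 0.71 (0.0074), *Hsf5* 0.40 and *Hspb9* -0.17, with 5 higher in the other HSP70 list, 2 lower among HSP90 co-chaperones and 0 lower among mitochondrial genes. A 2-fold minimum left 1 member higher. *Dnaja1*, near 0, was -0.05 with upper-quartile factors and -0.01 when every mouse had to reach 10 counts. *Hsf4* was 0.03 with RLE factors and with DESeq2, and 0.09 without the 2 control mice lacking Y-linked counts; *Hsf5* was 0.05 and 0.07. The cause of these changes was not tested.

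Leaving out 1 mouse gave ranges of -1.12 to -0.42 for *Hsph1*, -0.47 to 0.41 for *Hsp90aa1*, -0.23 to 0.12 for *Dnaja1*, -0.28 to 0.42 for *Hspd1*, -0.21 to 0.33 for *Hsp90b1*, -0.10 to 0.27 for *Trap1*, -0.42 to 0.26 for *Hsf4* and -0.62 to 0.31 for *Hsf5*. The members called lower ranged from 4 to 6. Ratio ranges (log2) were -2.12 to -1.96 for the Hspa1 pair over *Hspa8*, -0.83 to -0.70 for *Hspa1a* over *Hspa1b*, -0.69 to -0.02 for *Hsp90aa1* over *Hsp90ab1*, 2.59 to 3.24 for *Hspe1* over *Hspd1*, 0.73 to 1.13 for *Dnajb1* over *Dnaja1*, -1.81 to -1.41 for *Hsph1* over *Hspa8* and -2.00 to -1.66 for *Bag3* over *Bag1*. Without *Supt6*-KO mouse 1, 2 or 3 the adjusted exact p of 5 ratios was 0.05, and without the 2 control mice 0.08 (log2 differences -2.11, -0.80, 2.93, -1.56 and -1.96), with each of the 5 at the smallest unadjusted p that so many mice allow (0.0357 and 0.0571), so these values say nothing about stability.

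With the replicate number as a block, *Hsp90aa1* was -0.07 and *Dnaja1* -0.06, neither of them called, *Hspb2* was called at -0.58 (0.037) and *Hspb8* at -0.30 (0.038), and 5251 genes were called higher and 5800 lower. Same-numbered mice had correlations of -0.018 to 0.235, not all over 0.1, so the numbers were not taken to pair the mice. The depth, 29627341 to 30967107 counts, limits mainly genes under 1 CPM here (*Hsf4*, *Hsf5*, *Hspb9*, *Cryaa*).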
